A study of Mus musculus with 2 samples.

Results

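Semaphorins, their plexin and neuropilin receptors and the plexin domain-containing proteins were examined in bone marrow-derived macrophages with and without the Tipe1 gene. The group was taken by symbol as every row of the count table that starts with Sema and a digit, with Plxna, Plxnb, Plxnc or Plxnd, or with Plxdc and a digit, together with Nrp1 and Nrp2. It held 34 of 46095 genes, made up of 20 semaphorin genes, 9 plexin genes, 2 plexin domain-containing genes, 2 neuropilin genes and the antisense RNA gene Plxna4os1, whose symbol the same pattern takes in. The KO library came from LyzM-Cre; Tipe1f/f mice, whose genotype label is TIPE1-/-. The WT library carries a wild type genotype label, and the design text gives its mice as Tipe1f/f, so that by this text both groups share the floxed alleles and differ in Cre. Both were of strain C57BL/6, and both cultures had 5 days of M-CSF at 100 ng/ml, the growth factor that turns marrow cells into macrophages. LyzM-Cre is expressed from the lysozyme gene Lyz2 in myeloid cells, so other cells of a marrow culture would keep Tipe1. The sources used here give no age, sex or number of mice for either library. There was 1 library per genotype, so none of the differences could be checked against replicates and no p-value is given. Fewer cells of a type and less RNA per cell cannot be told apart in such bulk RNA.

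Semaphorins are secreted or membrane-bound proteins first known for steering growing axons. They bind plexins through a shared fold, the sema domain. The bound plexin acts through its intracellular GTPase-activating part on small GTPases and so loosens adhesion and reshapes the cytoskeleton. Class 3 semaphorins are secreted and mostly need a neuropilin as the binding partner beside a plexin A, whereas classes 4 to 7 are anchored to the membrane and mostly bind plexins without one. In the immune system the family is known for contacts between leukocytes, for the migration of macrophages and dendritic cells, and for osteoclast formation.

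Promoter windows of 300 bases, from 250 before to 50 after the start of the gene, were on hand for 26 of the 34 genes (RefSeq, GRCm38.p6). The 4 printed here belong to genes that lay 1.5-fold or more apart between the libraries and have a single window, with 2 that were higher in KO (Plxnd1 and Plxnb3) and 2 that were lower (Sema7a and Plxna3). The windows lie at chr6:115994956-115995255 on the minus strand for Plxnd1, chrX:73756853-73757152 on the plus strand for Plxnb3, chr9:57939862-57940161 on the plus strand for Sema7a and chrX:74328816-74329115 on the plus strand for Plxna3. They read 5′ to 3′ along the gene, and capitals mark the GC box GGGCGG on either strand.
Plxnd1: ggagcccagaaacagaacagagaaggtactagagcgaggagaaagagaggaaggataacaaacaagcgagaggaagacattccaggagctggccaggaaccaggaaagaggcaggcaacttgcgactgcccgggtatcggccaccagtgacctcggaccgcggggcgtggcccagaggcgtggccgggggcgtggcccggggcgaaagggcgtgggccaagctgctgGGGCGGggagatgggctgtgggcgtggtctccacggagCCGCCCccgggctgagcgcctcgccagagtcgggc
Plxnb3: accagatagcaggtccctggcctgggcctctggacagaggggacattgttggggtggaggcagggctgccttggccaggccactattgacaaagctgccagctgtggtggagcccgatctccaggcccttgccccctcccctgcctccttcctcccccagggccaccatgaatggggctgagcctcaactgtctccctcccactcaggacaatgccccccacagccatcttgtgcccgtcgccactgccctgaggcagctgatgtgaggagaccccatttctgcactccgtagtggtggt
Sema7a: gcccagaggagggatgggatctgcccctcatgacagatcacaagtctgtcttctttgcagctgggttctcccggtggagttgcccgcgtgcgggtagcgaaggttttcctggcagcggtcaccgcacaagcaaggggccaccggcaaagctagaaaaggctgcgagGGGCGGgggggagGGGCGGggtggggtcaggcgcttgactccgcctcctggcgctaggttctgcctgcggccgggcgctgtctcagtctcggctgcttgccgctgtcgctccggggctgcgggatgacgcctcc
Plxna3: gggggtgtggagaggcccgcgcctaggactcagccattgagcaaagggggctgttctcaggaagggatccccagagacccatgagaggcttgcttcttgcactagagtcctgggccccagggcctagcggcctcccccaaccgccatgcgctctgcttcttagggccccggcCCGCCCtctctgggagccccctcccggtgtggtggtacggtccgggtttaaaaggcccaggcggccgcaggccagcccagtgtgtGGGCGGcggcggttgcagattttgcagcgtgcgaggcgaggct

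The GC box was found in 27 of 37 windows of the group (some genes have several starts) and in 35.7% of all 32851 windows. It occurred at 2 places in each of the Plxnd1, Sema7a and Plxna3 windows and was not among the letters of the Plxnb3 window. The windows are rich in G and C, at 67.0% for Plxnd1, 63.7% for Plxnb3, 67.3% for Sema7a and 67.7% for Plxna3. On both strands, the TATA box TATAAA was in 0 of the 37 windows, against 13.6% of all windows. The AP-1 motif TGANTCA was in 3 of the 37 windows, at Sema4c, Sema4d and Sema6b, against 7.81% of all windows. The ETS motif AGGAAGT was in 4 of them, against 9.35% of all windows, and the E-box CACGTG in 3, against 7.15%.

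The libraries held 15815956 counted reads for KO and 11782664 for WT. Values are given as CPM, reads per 1000000 after TMM scaling, with the KO over WT ratio of CPM and its exact 95% counting interval in parentheses. Ratios under 1 are also written as fold lower in KO. A count of 3, the most that a count of 0 allows, is 0.194 CPM in KO and 0.248 CPM in WT. The targeted gene Tnfaip8l1, which encodes TIPE1, had 3 reads in KO and 21 in WT, although reads from exons that Cre leaves in place would not show the deletion. A cell type marker list for fibroblasts and stromal cells had 18 of 20 genes counted as lower in KO (90%, against 7.23% over all genes). Of these, Cxcl12, named after its values were seen, had 12 reads in KO and 129 in WT. It averaged 1 CPM only through WT, so its count supports nothing. The list summed to 2681 CPM in KO and 4106 CPM in WT. Without Vim, a gene that macrophages express as well and that was set aside after its values were seen, the sum was 308.4 CPM in KO and 2447 CPM in WT. None of the 20 markers was at 0 in either library. The macrophage list stood at 24353 CPM in KO and 22187 CPM in WT, with 15 of 17 tested genes counted as neither higher nor lower and its member Aif1 listed at 0 in both. Monocyte markers summed to 411.6 CPM in KO and 1141 CPM in WT, neutrophil markers to 848 CPM in KO and 1129 CPM in WT, and B cell markers to 2.66 CPM in KO and 14.7 CPM in WT. Osteoclast markers summed to 1328 CPM in KO and 543.4 CPM in WT. Of 6 tested genes 4 were counted as higher (66.7%, against 6.47% over all genes), namely Acp5, Dcstamp, Atp6v0d2 and Mmp9. The other 2 went the other way but were counted as neither. Dcstamp, named after its values were seen, had 64 reads in KO and 10 in WT. It averaged 1 CPM only through KO, so its count and the share that includes it support nothing. Mmp9 had 731.5 CPM in KO and 125.9 CPM in WT. The endothelial, dendritic, and T and NK lists summed to 141.0, 549.7 and 37.3 CPM in KO, and to 121.3, 574.8 and 25.8 CPM in WT. Which of the genes below come from which cells cannot be read from these libraries, and the part of other cells in the differences was not tested.

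A few genes carried nearly all expression of the group in both libraries. Scaled to exon length, Plxna1 was the most expressed gene of the group at 148.0 CPM per kb in KO and 115.0 CPM per kb in WT. Sema4d stood at 114.1 CPM per kb in KO and 87.6 in WT, and Plxnb2 at 103.0 in KO and 106.5 in WT. Plxnd1 came to 93.1 CPM per kb in KO and 51.5 in WT, and Nrp2 to 71.5 in KO and 57.9 in WT. Nrp1 came to 43.7 CPM per kb in KO and 36.3 in WT, and Plxnc1 to 33.9 in KO and 41.7 in WT. All other genes of the group were below 25 CPM per kb in both libraries. The order of Sema4d and Plxnb2, of Plxnd1 and Nrp2, and of Nrp1 and Plxnc1 differed between the libraries. At the other end, 8 genes, all of them semaphorins, had no read in KO and 2 of these none in WT either.

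**Figure D1:**
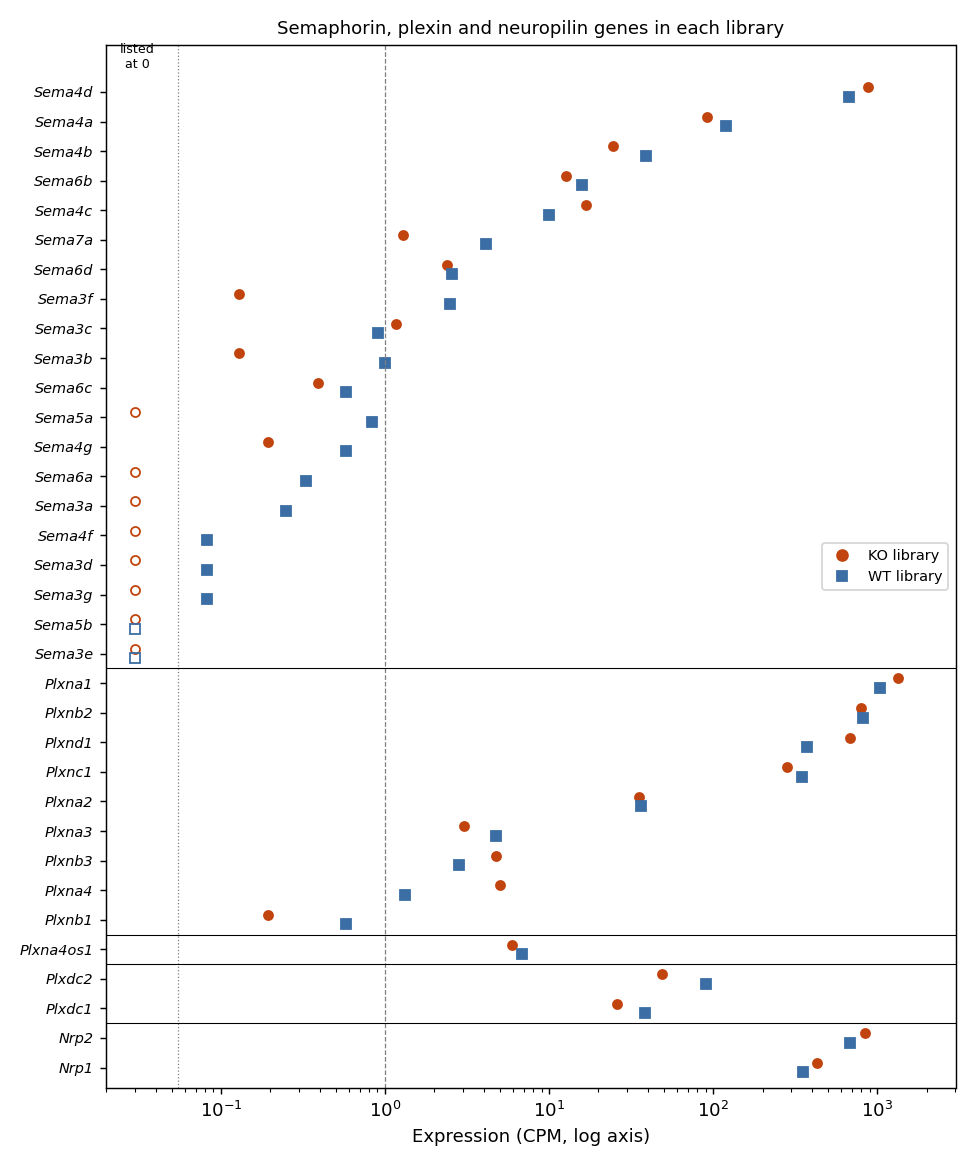
Expression of the 34 genes in KO (circles) and in WT (squares), in CPM on a log axis, grouped by kind and ordered by mean CPM within a kind. Open symbols at the left are genes listed at 0, and the dashed line marks 1 CPM. Distances between genes on this axis also reflect transcript length. The 7 most expressed plexins, semaphorins and neuropilins lie at 283 CPM or more in both libraries, and the 8 open circles are all semaphorin genes.

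An average of 1 CPM over both libraries was reached by 22 of the 34 genes. Of these 22, 4 were counted as higher and 5 as lower in KO, which means a ratio of at least 1.5-fold with an interval that excluded 1, and 13 were neither. By the same rule 6.47% of 12495 genes were higher and 7.23% were lower. The 4 higher genes were Plxnd1, Plxna4, Plxnb3 and Sema4c, and the 5 lower genes were Sema3f, Sema7a, Plxdc2, Sema4b and Plxna3. The log2 ratios, taken after adding 0.5 CPM, had a median of -0.06 over the 22 genes and of 0.01 over all genes tested, and 9 of the 22 were above 0. At 2-fold or more only Plxna4 was higher, and Sema7a and Sema3f were lower, beside 2.59% and 4.78% of all genes. Sema3f averaged 1 CPM only through WT, so its count as lower supports nothing at either fold. Of the 9 counted genes 4 averaged 10 CPM or more, namely Plxnd1 and Sema4c on the higher side and Plxdc2 and Sema4b on the lower side.

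**Figure D2:**
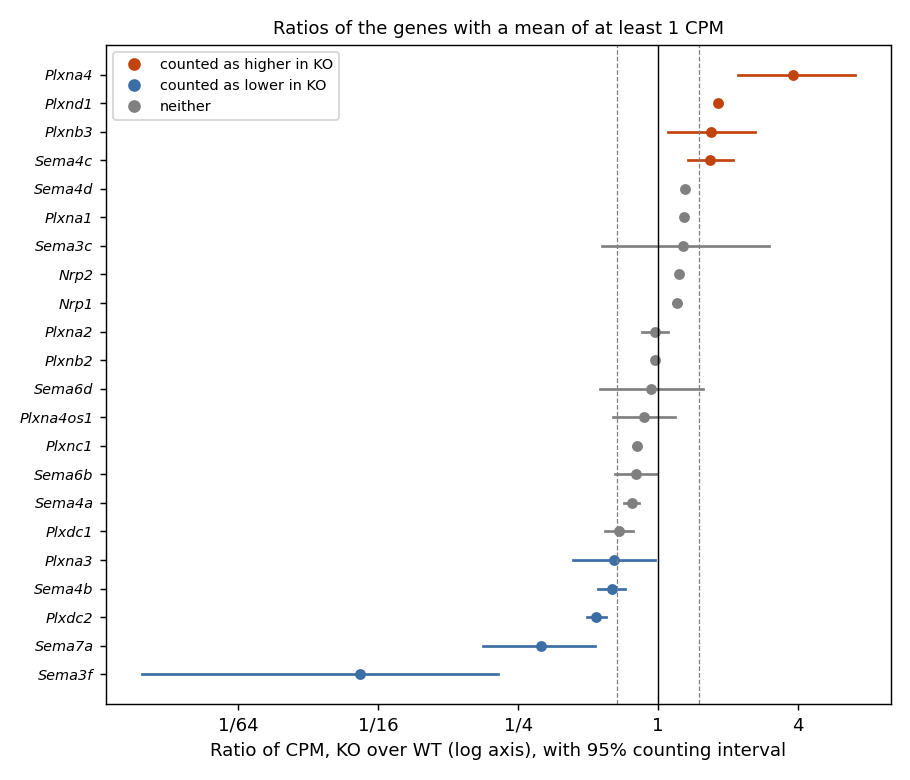
Ratio of CPM in KO over WT (log axis) for the 22 genes that averaged 1 CPM or more, with 95% counting intervals; dashed lines mark 1.5-fold in each direction. The 4 genes counted as higher run from 1.67 for Sema4c to 3.82 for Plxna4, and Sema3f lies farthest to the left with the widest interval.

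Among the ligands, class 4 held nearly all reads. Sema4d, known as CD100 and shed from leukocytes to act on plexin B receptors and CD72, had 876.4 CPM in KO against 673.0 CPM in WT. Its ratio was 1.30 (1.27 to 1.34), under the fold used for counting. Sema4a, which acts in T cell priming, went the other way with 92.4 CPM in KO against 119.8 CPM in WT, or 1.30-fold lower (1.20 to 1.40). Per kb of exon, Sema4d was 6.68-fold above Sema4a in KO and 3.95-fold above it in WT.

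The less abundant class 4 genes went in different directions. Sema4b stood at 24.4 CPM in KO against 38.7 CPM in WT, 1.59-fold lower (1.38 to 1.82). Sema4c, a ligand of plexin B2, stood at 16.7 CPM in KO against 10.02 CPM in WT, a ratio of 1.67 (1.34 to 2.09). Of the exon bases of Sema4c 7.27% overlap a gene on the opposite strand (D430040D24Rik in GENCODE M21), and the strand setting of the counts is not given, so some of its reads could belong to that gene. Sema4g had 3 reads in KO and 7 in WT, a ratio of 0.34 (0.056 to 1.47), and Sema4f had 0 in KO and 1 in WT, too few for a fold. Summed over class 4 the level was 1010 CPM in KO against 842.2 CPM in WT, and Sema4d made up most of both sums.

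**Figure D3:**
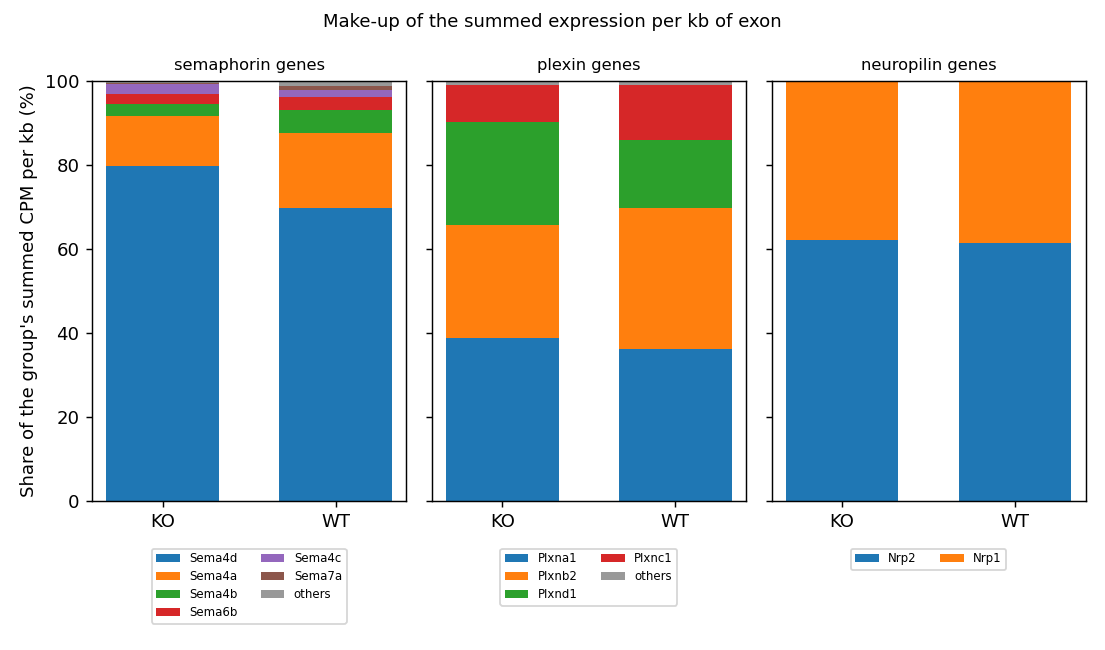
Share of each gene in the summed CPM per kb of exon of the semaphorin, plexin and neuropilin genes, in KO (left bar) and in WT (right bar). Sema4d made up 79.6% of the semaphorin sum in KO and 69.9% in WT, and Plxnd1 made up 24.4% of the plexin sum in KO and 16.2% in WT, while the shares of Nrp2 and Nrp1 were nearly the same in both libraries.

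The secreted class 3 semaphorins were close to the limit of detection. Sema3f, a repulsive ligand that binds neuropilin 2, had 2 reads in KO and 30 in WT, or 0.130 CPM in KO against 2.48 CPM in WT, 19.2-fold lower (4.86 to 165). It reached the mean of 1 CPM through the WT library alone. Its neighbour Sema3b, 72.3 kb away on chromosome 9, had 2 reads in KO and 12 in WT, 7.66-fold lower (1.71 to 70.5), and missed that mean. Sema3c, which can signal through plexin D1, had 18 reads in KO against 11 in WT, a ratio of 1.28 (0.573 to 3.001) that this depth does not set apart from 1. Sema3a, Sema3d and Sema3g had 0 reads in KO and 3, 1 and 1 in WT. Sema3e, the ligand that binds plexin D1 without a neuropilin, was listed at 0 in both. The class summed to 1.43 CPM in KO and 4.80 CPM in WT. Of the stromal markers described above, Col1a1 stood at 58.9 CPM in KO and 714 CPM in WT beside these values, and the part of stromal RNA in them was not tested.

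Classes 5 to 7 were low as well. Sema7a, a GPI-anchored ligand of integrins and plexin C1 that stimulates monocytes, had 20 reads in KO against 50 in WT. At 1.30 CPM in KO against 4.14 CPM in WT it was 3.19-fold lower (1.87 to 5.66). Sema5a had 0 reads in KO and 10 in WT, and Sema5b had 0 in both. With its 0 set to 3 counts, Sema5a was 4.26-fold lower, a value that leaves out the counting error of the WT reads. Sema6b stood at 12.7 CPM in KO against 15.8 CPM in WT, 1.24-fold lower (1.01 to 1.53). Sema6b is of interest for its place, since it lies on chromosome 17 (56123085 to 56140343, GRCm38, minus strand), 22.1 kb from Tnfaip8l1 itself. Sema6d, a ligand of plexin A1, had 37 reads in KO and 31 in WT, a ratio of 0.93 (0.564 to 1.56). Sema6c had 6 reads in KO and 7 in WT, and Sema6a had 0 in KO and 4 in WT.

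Among the receptors, Plxnd1 had the largest difference of the abundant genes. It encodes plexin D1, the receptor of Sema3e, and lies on chromosome 6 (115954811 to 115995005, GRCm38, minus strand), where its exons overlap no other gene in GENCODE M21. It had 10492 reads in KO and 4537 in WT, or 680.0 CPM in KO against 375.6 CPM in WT, a ratio of 1.81 (1.75 to 1.87). Per kb of exon it reached 0.63 of the Plxna1 level in KO and 0.45 of it in WT. Its ligand gene Sema3e was at 0, as given above, and the further ligand genes Sema3c and Sema4a were at 1.17 and 92.4 CPM in KO and at 0.911 and 119.8 CPM in WT.

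Type A plexins pair with neuropilins to receive class 3 semaphorins and also bind class 6 semaphorins. Plxna1 had 1340 CPM in KO against 1042 CPM in WT, a ratio of 1.29 (1.26 to 1.32). In 10.7% of its exon bases it overlaps a transcript on the opposite strand (Gm26811). Plxna2 was nearly level, at 35.3 CPM in KO and 36.3 CPM in WT, with a ratio of 0.97 (0.854 to 1.10). Plxna3 was lower, with 47 reads in KO against 57 in WT, or 3.05 CPM in KO against 4.72 CPM in WT, 1.55-fold lower (1.03 to 2.33). Plxna4 was higher, with 78 reads in KO against 16 in WT, or 5.06 CPM in KO against 1.32 CPM in WT, a ratio of 3.82 (2.21 to 7.003). The antisense RNA Plxna4os1, which lies inside the Plxna4 locus without sharing exon bases with it, had 92 reads in KO and 83 in WT, a ratio of 0.87 (0.638 to 1.18). The intervals of the sense and antisense genes do not overlap, but the strand setting of the counts is not given, so intronic reads of Plxna4 could fall on Plxna4os1.

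Type B plexins, the receptors of class 4 semaphorins, were represented almost wholly by Plxnb2. It had 795.3 CPM in KO and 821.8 CPM in WT, a ratio of 0.97 (0.942 to 0.994). Plxnb1, which encodes the high-affinity receptor of Sema4d, had 3 reads in KO and 7 in WT. Plxnb3, known for binding Sema5a, had 73 reads in KO against 34 in WT, or 4.73 CPM in KO against 2.82 CPM in WT, a ratio of 1.68 (1.10 to 2.60). Plxnb3 and Plxna3 lie 556.6 kb apart on the X chromosome and went in opposite directions, each with an interval that ends close to 1. Plxnc1, the receptor of Sema7a, had 283.0 CPM in KO and 348.3 CPM in WT, 1.23-fold lower (1.18 to 1.28).

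Both neuropilins were somewhat higher in KO. Nrp2, which binds Sema3f and VEGF-C, had 846.3 CPM in KO against 685.2 CPM in WT, a ratio of 1.24 (1.20 to 1.27). Nrp1, which binds Sema3a and VEGF-A, had 427.4 CPM in KO against 354.8 CPM in WT, a ratio of 1.20 (1.16 to 1.25). Neither reached the 1.5-fold used for counting. The level of Nrp2 over Nrp1 per kb of exon was 1.64 in KO and 1.60 in WT.

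The plexin domain-containing genes, which encode membrane proteins first found in tumour endothelium and not semaphorin receptors, were lower. Plxdc2 had 49.1 CPM in KO against 90.6 CPM in WT, 1.85-fold lower (1.68 to 2.03). Plxdc1 had 25.9 CPM in KO against 38.3 CPM in WT, 1.48-fold lower (1.29 to 1.69), just under the fold used, and it passed that fold when the libraries were scaled to total counts. Endothelial markers had 3 of 8 tested genes counted as lower (37.5%, against 7.23% over all genes). Of these, Egfl7 and Robo4, named after their values were seen, averaged 1 CPM only through WT, so their count supports nothing. Vwf was counted as higher (12.5%, against 6.47%), and Cldn5 was listed at 0 in both libraries. The endothelial list summed to 141.0 CPM in KO and 121.3 CPM in WT, with Vwf at 32.1 CPM in KO and 17.8 CPM in WT. This sum follows its few abundant genes, as 6 of the 8 tested genes had a log2 ratio below 0 and 2 above.

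**Figure D4:**
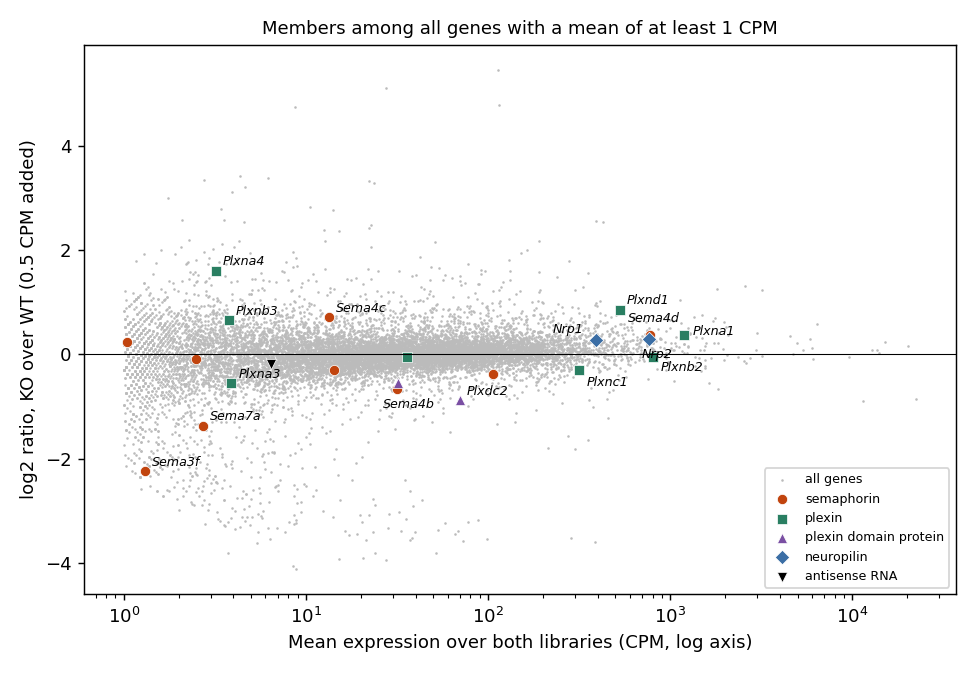
Log2 ratio of the KO library over the WT library (0.5 CPM added) against mean CPM (log axis) for all 12495 genes tested, in grey, with the 22 genes of the group by kind. Among the group's genes above 300 CPM, Plxnd1 at 0.86 lies highest and Plxnc1 at -0.30 lowest, while Sema3f at -2.24 lies among the low-count genes at the left.

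Genes that act with the family were taken as a list of 87 symbols in 6 classes, of which 86 are in the table and 68 averaged 1 CPM or more. Of these 68, 4 (5.88%) were counted as higher in KO, 11 (16.2%) as lower and 53 as neither, against 6.47% higher and 7.23% lower over all genes tested. Of the lower genes, Ptk7, Robo1, Pgf, Farp1 and Adamts4 were under 1 CPM in KO and averaged 1 CPM only through WT, so their count supports nothing. The median log2 ratio was 0.09, against 0.01 over all genes tested. Among those that averaged 10 CPM or more, 3 were higher and 1, Vegfa, was lower.

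Of 12 binding partners tested, 3 (25%) were higher and 4 (33.3%) lower, against 6.47% and 7.23% over all genes. Of the lower ones, Ptk7 and Robo1 averaged 1 CPM only through WT, so their count and the share that includes them support nothing. Met, the HGF receptor that associates with plexin B1, had 46.0 CPM in KO against 20.9 CPM in WT, a ratio of 2.19 (1.90 to 2.54). L1cam, a co-receptor of Sema3a, had 8.23 CPM in KO against 4.14 CPM in WT, a ratio of 1.99 (1.42 to 2.82). Cd72, a receptor of Sema4d, had 272.7 CPM in KO against 175.9 CPM in WT, a ratio of 1.55 (1.47 to 1.63). Unc5b, a netrin receptor, had 3.89 CPM in KO against 14.9 CPM in WT, 3.83-fold lower (2.85 to 5.22). Ptk7, Robo1 and Itga1, named after their values were seen, were also counted as lower. Ptk7 had 8 reads in KO and 89 in WT, 14.2-fold lower (6.91 to 33.9). Robo1 had 4 reads in KO and 30 in WT, 9.58-fold lower (3.38 to 37.4). Itga1 had 80 reads in KO and 98 in WT, 1.56-fold lower (1.15 to 2.13). Trem2 and Tyrobp, which form a complex with plexin A1 in mouse myeloid cells, stood within 1.2-fold, at 566.7 and 690.9 CPM in KO against 594.1 and 605.4 CPM in WT.

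Among the VEGF ligands of the neuropilins, Vegfa had 284.7 CPM in KO against 446.3 CPM in WT, 1.57-fold lower (1.51 to 1.63). Vegfb had 23.6 CPM in KO against 33.2 CPM in WT, 1.41-fold lower (1.22 to 1.63). Pgf, named after its values were seen, had 5 reads in KO and 21 in WT, 5.37-fold lower (1.97 to 18.2).

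Of 21 GTPases and their regulators, which act below the plexins, 0 were higher and 2 (9.52%) lower, near the 7.23% over all genes. These were Rras2 and Farp1, both named after their values were seen. Farp1 had 11 reads in KO and 68 in WT, 7.90-fold lower (4.15 to 16.6), and averaged 1 CPM only through WT. Rras2 had 44 reads in KO and 57 in WT, 1.65-fold lower (1.10 to 2.51). Rap1b stood at 718.4 CPM in KO against 522.5 CPM in WT, and Mras at 8.75 CPM in KO against 6.54 CPM in WT. Rras, the Ras protein that plexins inactivate, stood at 38.6 CPM in KO against 29.5 CPM in WT. Of 7 MICAL and CRMP genes tested 1 was lower (14.3%, against 7.23% over all genes). It was Dpysl3, at 1.94 CPM in KO against 16.8 CPM in WT, 8.64-fold lower (5.87 to 13.1). Micall2, Dpysl2, which encodes CRMP2, and Micall1 had ratios of 1.497, 1.25 and 1.20. Of 18 kinases, effectors and adaptors tested 1 was higher (5.56%, against 6.47% over all genes) and 0 lower. It was Src, at 33.2 CPM in KO against 20.3 CPM in WT, a ratio of 1.64 (1.40 to 1.92). Pak1, Ptk2 and Ptk2b had ratios of 1.48, 1.37 and 1.29.

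Of 6 tested proteases that cleave these proteins, 0 were higher and 2 (33.3%, against 7.23% over all genes) lower, Adamts1 and Adamts4, named after their values were seen. Adamts1 had 18 reads in KO and 45 in WT, 3.19-fold lower (1.81 to 5.86). Adamts4 had 3 reads in KO and 31 in WT. It averaged 1 CPM only through WT, so its count and the share that includes it support nothing. The sheddase gene Adam17 had 587.7 CPM in KO against 437.7 CPM in WT, a ratio of 1.34 (1.30 to 1.39). Furin, the convertase that processes class 3 semaphorins, was 1.29-fold lower, at 148.2 CPM in KO against 191.2 CPM in WT. Adam10 and Mmp14, both also metalloproteases, had ratios of 0.95 and 1.05.

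**Figure D5:**
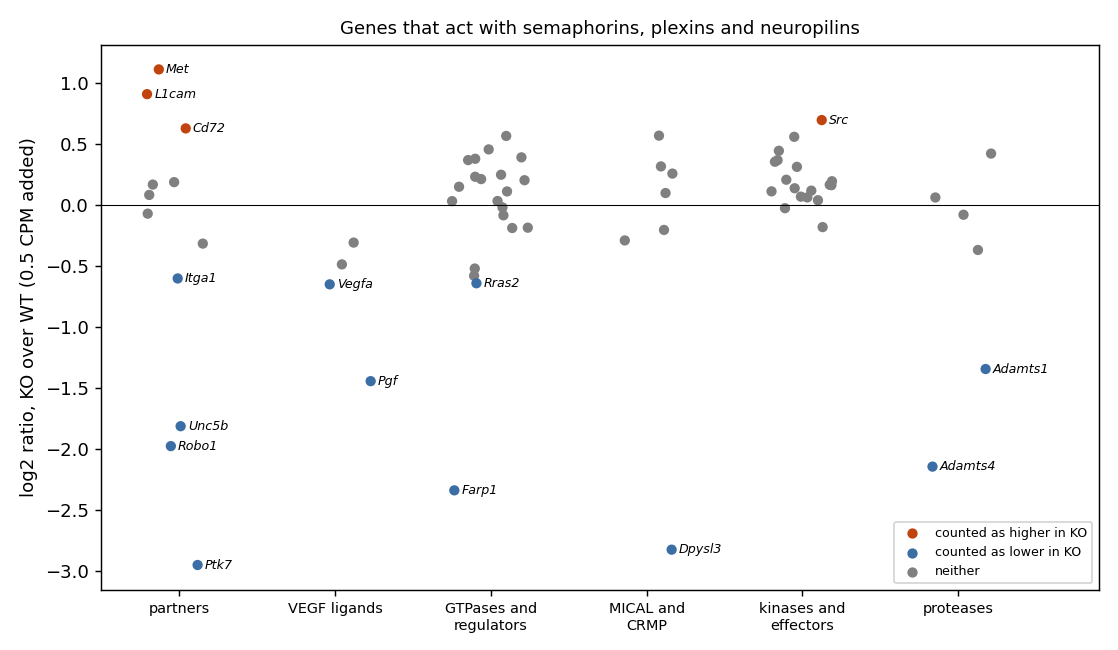
Log2 ratio of the KO library over the WT library (0.5 CPM added) for the 68 tested genes that act with the family, by class; points are spread sideways for legibility and counted genes are named. The 4 higher genes lie among the binding partners (Met, L1cam, Cd72) and the kinases (Src), and the lowest point is Ptk7 at -2.95.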

How the data were processed

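Total RNA of 1 KO and 1 WT macrophage culture was sequenced on Illumina libraries, per the labels' protocols. The deposited table gives, per the file headers, raw read counts by gene symbol in a column for each library. The submitters' processing notes name HISAT2 and GRCm38; no source used here gives the counting program, annotation or strand setting. Counts were scaled to CPM with TMM (edgeR 4.0.16, R 4.3.3). Log2 ratios had 0.5 CPM added, which understates the change of low genes. Genes that averaged 1 CPM or more over the libraries were tested. A gene was counted as higher or lower at 1.5-fold or more with an exact Clopper-Pearson 95% interval of its read split (scipy 1.17.1) that excluded 1. Intervals and floors cover counting error only, and PCR copies are not separate molecules. With no replicates there is no p-value. Exon lengths came from GENCODE M21 and promoters from RefSeq, both on GRCm38, and the authors' annotation may differ. The calculation was tested on simulated data. All genes of the group are named, with up to 4 genes per class of the pathway list that averaged 5 CPM or more, in order of log2 ratio; others are marked. A marker gene and a pathway gene that these rules take in are not reported here. Members and lists were chosen with earlier results of these data known. Alternatives were total counts, DESeq2 1.42.0 size factors, thinned KO counts, other filters, folds and an added 2 CPM.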

Additional observations from a re-analysis of the deposited data

How the results depend on the processing

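No paired analysis was possible because there was a single library of each genotype. Among genes that averaged 10 CPM or more, 2 genes of the family were higher and 2 lower in the KO library, and 1 gene of the pathway list was lower instead of 11, since most counted genes are low. At 2-fold, 1 gene of the family was higher and 2 lower, and 1 pathway gene was higher. The median log2 ratio of the family was -0.20 when the KO library was thinned to the WT total, where 21 genes passed the filter. It was -0.25 over the 32 genes with a read, or -0.35 with counts under 3 set to 3. Under the other alternatives these counts stayed within 1.5 times and the median within 0.1. Total counts changed 1 call of the family, Plxdc1, and the direction of 0 genes. They moved 7 of 22 ratios outside their counting intervals, among them Plxnd1 at 1.72 and Sema4d at 1.24. DESeq2 size factors changed 0 calls. Thinning changed 0 calls and the direction of Plxna2, whose interval includes 1. The ratio of Tnfaip8l1 ran from 0.11 to 0.15 over these scalings, which were added for this gene after seeing the data. Depth limits the 12 genes under 1 CPM, where intervals are wide (1.71 to 70.5-fold lower for Sema3b), and the absence of replicates limits all of them.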
